A study of Homo sapiens with 8 samples.

Results

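Acetylation of histone H3 at lysine 27 (H3K27ac) was compared between A549 cells treated with control siRNA and A549 cells treated with NRF2 siRNA 30, using only the replicate pairs that shared this siRNA, replicates 2 and 3. These 4 samples, of 8 in the series and 6 with a peak list, were chosen by siRNA and replicate number alone. A549 is a human lung adenocarcinoma line that carries mutant KEAP1, and its chromatin was taken 48 h after transfection. Both groups share this line, its medium and the antibody, and differ in the siRNA alone as far as the labels say. Replicate 1, in which NRF2 siRNA 28 was used, defined no region below and is used only as separate samples. The names of the peaks in the 4 lists share a flow cell prefix that the replicate 1 lists lack.

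NRF2 is a basic leucine zipper factor that is degraded through KEAP1 in resting cells and accumulates where KEAP1 is mutated. With a small MAF partner it binds antioxidant response elements and activates genes for glutathione synthesis, quinone and carbonyl reduction, NADPH supply and drug efflux. H3K27ac marks active promoters and enhancers. AP-1 and C/EBP factors are basic leucine zipper factors too, and the AP-1 site shares letters with the antioxidant response element.

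Peaks of the 4 lists that overlapped by at least 1 bp were merged into 47847 regions. A region called in both control libraries and in neither NRF2 siRNA 30 library is termed lost, and one called in both NRF2 siRNA 30 libraries and in neither control is termed gained. There were 2356 lost regions (4.92% of all regions) and 2149 gained regions (4.49%), and 26093 regions were called in all 4 libraries. Each region took the highest fold enrichment of its peaks, given here as its percentile within that library's own list, where 100 is the strongest peak and 0 stands for not called. The cells were checked against cell type markers. A peak lay over a transcript start of 5 of 6 epithelial markers in all 4 libraries, KRT19 being the exception, over 0 of 4 alveolar type II markers, 0 of 4 endothelial and 0 of 5 fibroblast markers, and over 2 of 6 leukocyte markers (CD14 and CD68, with PTPRC, CD3E and ITGAM among those at 0). A further endothelial marker, PECAM1, was not found among the coding genes of the annotation and could not be checked.

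The letters that set lost and gained regions apart are shown first. In the regions below that were lost or fell, the capitals mark matches to the core of the antioxidant response element (TGACNNNGC, read on both strands). All are hg19 plus strand sequence, none lies in an exon, and each window surrounds the match nearest to the middle of its region, with any neighbouring match.
NOTCH3 upstream, chr19:15321232-15321297: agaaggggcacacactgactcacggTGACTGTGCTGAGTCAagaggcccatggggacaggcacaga
NQO1 promoter, chr16:69760885-69760943: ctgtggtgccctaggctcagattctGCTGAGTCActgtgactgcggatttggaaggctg
PTHLH, chr12:28188644-28188702: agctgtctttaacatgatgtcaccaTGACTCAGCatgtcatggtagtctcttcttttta
ADH7, chr4:100368375-100368433: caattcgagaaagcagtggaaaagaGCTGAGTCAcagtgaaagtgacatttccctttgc
GSTM5, chr1:110262073-110262143: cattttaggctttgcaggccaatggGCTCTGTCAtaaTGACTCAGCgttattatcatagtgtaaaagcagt
FAM20B intron, chr1:179030098-179030156: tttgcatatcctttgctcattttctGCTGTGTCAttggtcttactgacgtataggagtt
ABCG2 intron, chr4:89099599-89099657: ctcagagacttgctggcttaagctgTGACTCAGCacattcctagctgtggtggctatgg
AKR1B1, chr7:134133572-134133630: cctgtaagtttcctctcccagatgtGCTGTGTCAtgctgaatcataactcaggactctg

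In the regions below that were gained or rose, the capitals mark matches to the AP-1 letters TGANTCA, read on both strands. Each motif occurs in both sets. AP-1 letters lie inside marked elements above, as at PTHLH, and the AMHR2 region held 2 response element matches, not marked here.
NTSR1 intron, chr20:61370830-61370886: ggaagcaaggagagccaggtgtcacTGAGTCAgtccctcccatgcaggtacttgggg
KRT19, chr17:39686451-39686610: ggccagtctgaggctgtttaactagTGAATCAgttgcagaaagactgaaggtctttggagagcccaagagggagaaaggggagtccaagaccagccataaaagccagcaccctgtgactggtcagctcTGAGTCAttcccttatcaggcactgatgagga
AMHR2, chr12:53822155-53822318: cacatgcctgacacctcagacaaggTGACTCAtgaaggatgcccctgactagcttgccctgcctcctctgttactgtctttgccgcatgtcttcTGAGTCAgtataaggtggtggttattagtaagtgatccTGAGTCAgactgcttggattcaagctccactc

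Lost regions held more response element matches than gained regions, and gained regions held more AP-1 matches. The response element core matched 0.716 times per kb in lost regions, 0.338 in gained regions, 0.386 in regions called in all 4 libraries and 0.397 in all regions. The difference of lost minus gained regions, 0.377 per kb, was 0.224 when NRF2 siRNA 30 replicate 3 was left out. A match was present in 66.1% of 2354 lost regions and in 35.5% of 2148 gained regions on assembled chromosomes. Regions called in all 4 libraries held a match in 66.4%, at a median length of 2773 bp against 1157 bp for lost and 1283 bp for gained regions, so density rather than share is the measure to compare. The same letters read backwards matched 0.0861, 0.0714 and 0.120 times per kb in lost, gained and shared regions. Where no coding start lay within 1 kb, these densities were 0.0793, 0.0689 and 0.0819. Read backwards the letters hold a fixed CG pair that the core lacks, so they give no background level for the core. The median GC content of lost and gained regions was 42.0% and 41.1%. Matches followed by the letters of the common Alu repeat made up 4.41% of the response element matches in lost and 6.60% of those in gained regions, and without them the densities were 0.684 and 0.316 per kb.

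AP-1 letters matched 0.711 times per kb in lost, 0.939 in gained, 0.442 in shared and 0.472 in all regions. At least 1 AP-1 match lay in 67.3% of lost, 72.9% of gained and 58.2% of all regions, and at least 1 response element match in 53.0% of all regions. The AP-1 and response element motifs overlap where the sequence reads TGACTCAGC, as at PTHLH and ABCG2 above. In lost regions 38.2% of the AP-1 matches overlapped a response element match, against 2.63% in gained and 6.12% in shared regions. Outside response elements, AP-1 letters occurred 0.440 times per kb in lost regions, close to the 0.415 of shared regions, and 0.914 times in gained regions. C/EBP letters (TTGCNNAA, both strands) differed less, at 0.651, 0.637 and 0.565 per kb in lost, gained and shared regions. No test was made of these densities, which describe letters and not bound factors.

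**Figure D1:**
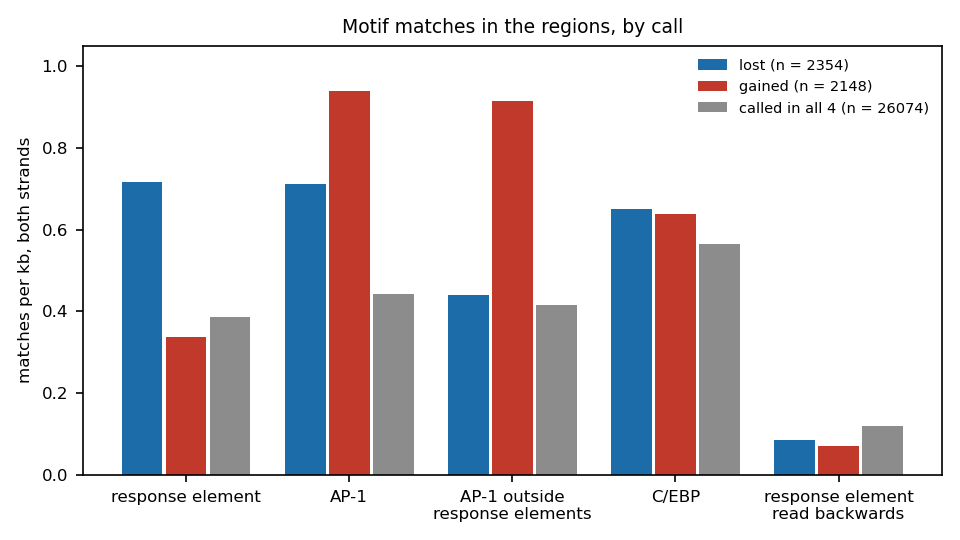
Motif matches per kb, counted on both strands, in lost, gained and shared regions. The response element bar is tallest in lost regions (0.716 per kb) and the AP-1 bar outside response elements is tallest in gained regions (0.914 per kb). The response element read backwards stays at or below 0.120 in each. It holds a fixed CG pair that the element lacks and is no background level for the other bars.

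Most lost and gained regions lay away from promoters. A coding transcript start fell inside 35.3% of the regions called in all 4 libraries, inside 4.92% of lost regions (116) and inside 1.72% of gained regions (37). Regions with no coding transcript start within 1 kb, termed distal, made up 92.5% of lost and 96.5% of gained regions against 63.0% of shared ones. Introns held 42.0% of lost and 38.6% of gained regions. A nearest coding start at 100 kb or more was found for 22.9% of lost, 31.4% of gained and 16.5% of shared regions. Lost regions were mostly weak, with a median control percentile of 27.8, and only 365 (15.5%) had a mean control percentile of 50 or more. Gained regions were weaker still in their own libraries, with a median of 21.0 and 70 regions (3.26%) at 50 or more. The lost and gained counts depended on the limit set on peaks: with peaks of q at most 1e-05 only, there were 896 lost and 1269 gained regions, and the control share of the one-sided regions moved from 52.3% to 41.4%.

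The strongest lost regions were enhancers of high rank in both controls. The region at chr12:28187352-28189910, 61686 bp from the nearest start of PTHLH (parathyroid hormone-like hormone), stood at percentiles 90.5 and 92.4 in the controls, with fold enrichments of 8.62 and 11.3, and was not called in either NRF2 siRNA 30 library. The region at chr4:100366373-100370254, 9706 bp from ADH7 (an alcohol dehydrogenase), stood at 92.0 and 90.2. The intronic region of FAM20B (a xylose kinase of proteoglycan synthesis) at chr1:179027485-179032685 stood at 90.5 in both controls. All 3 were called in 1 group only, so their groups do not overlap by construction. Further lost regions of the same rank lay over an exon of PPP1CB, inside SPDYA too (90.7 and 89.1), at chr14:44175173-44177303 far from any coding start (88.6 and 91.3), over GSTM5 (a glutathione transferase, 89.7 and 87.9), near TACR1 (the receptor of substance P, 89.4 and 88.1), in an intron of MARCHF6 (a ubiquitin ligase, 88.3 and 88.4), near SLC30A5 (a zinc transporter, 85.4 and 89.2) and on chromosome 18, 592014 bp from SOCS6 (85.3 and 88.5). Of these 10, 9 held at least 1 response element match, the region on chromosome 14 being the exception. The region near TACR1 lay 37767 bp from its nearest start. GSTM genes are close paralogs, so reads over GSTM5 may be shared among copies.

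The strongest gained regions reached lower ranks. An intronic region of NTSR1 (the neurotensin receptor) at chr20:61370311-61373101 stood at 80.0 and 78.5 in the NRF2 siRNA 30 libraries, with fold enrichments of 6.78 and 6.64, and in neither control. A region at chr11:134799502-134801798 stood at 78.9 and 73.9. The other 8 stood between 54.6 and 74.1 in single libraries, over EIF3I (a translation initiation factor subunit), near ADCY1 (an adenylate cyclase), near SPATA31C2, in introns of GREB1L and CEP152 (a centrosome protein), near NRP1 (a receptor of semaphorins and VEGF), near SIAH1 (a ubiquitin ligase), and at chr13:40703866-40706764. The nearest coding start lay 28727 bp away at NRP1, 63896 bp at SIAH1 and more than 100 kb at ADCY1 and SPATA31C2. Of these 10 gained regions 8 held an AP-1 match, and 6 held a response element match, those at NTSR1, GREB1L, NRP1 and SIAH1 and on chromosome 13 beside AP-1 and that on chromosome 11 without it.

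**Figure D2:**
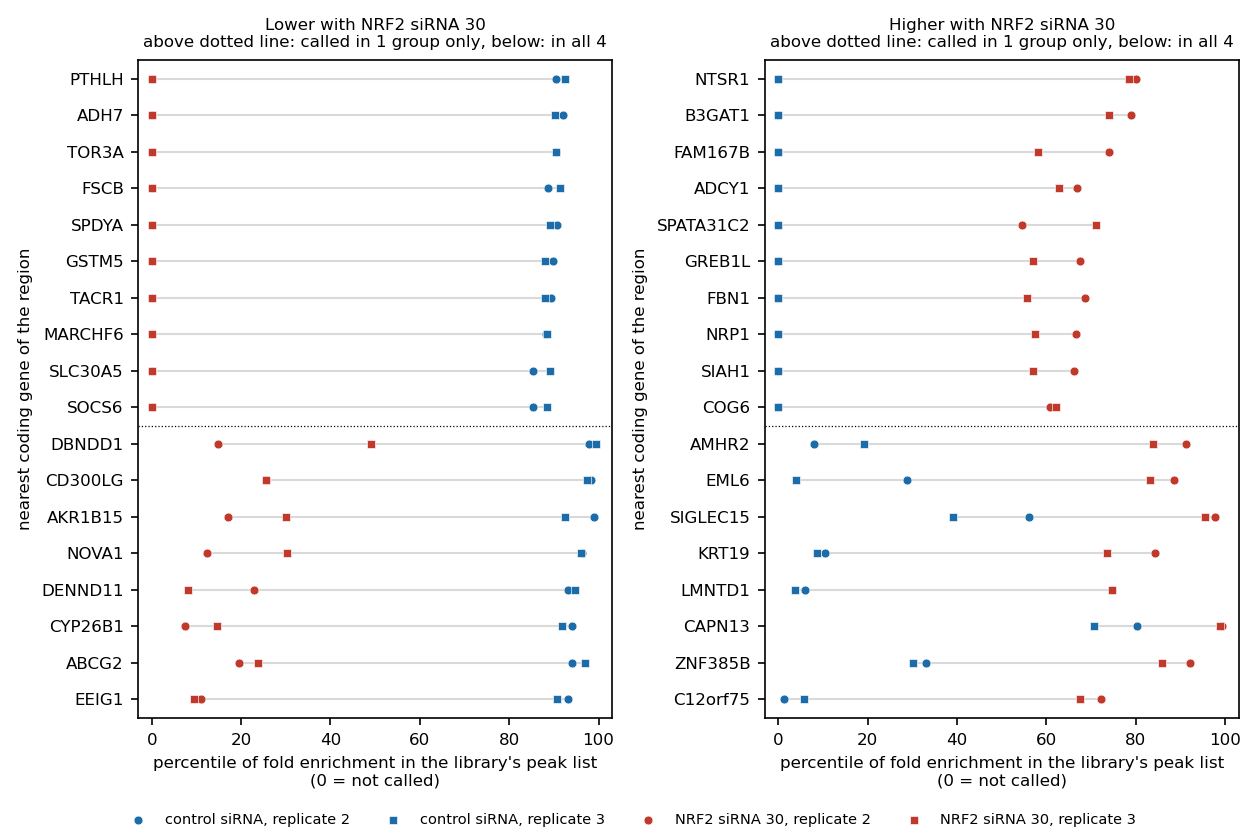
Percentile of fold enrichment (x axis, 0 = not called) in each of the 4 libraries for the strongest lost and gained regions (above the dotted lines) and the regions called in all 4 libraries that moved furthest (below). Region rows carry the nearest coding gene, so the regions in FAM20B, EIF3I, CEP152, EXOC6B and EPG5 appear as TOR3A, FAM167B, FBN1, CYP26B1 and SIGLEC15. In every row shown the control and NRF2 siRNA 30 points are apart. For rows above the lines this follows from how they were chosen. Rows below were picked for the largest same-direction changes in these same libraries, which favours it too.

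Transcript starts of coding genes were among the lost regions in a few cases. The 10 with the highest control rank were those of PRR5 (76.8 and 87.8), PRC1 (78.7 and 84.2), SH3TC1 (80.5 and 80.7), LRP1B (67.0 and 61.4), PAQR5 (65.7 and 59.8), NEDD4L (56.8 and 62.3), ACTR6 (48.3 and 58.8), PARS2 (46.2 and 57.4), AP2A2 (44.5 and 57.6) and FAHD2A (43.5 and 55.5). PRR5 is a subunit of the TORC2 kinase complex, PRC1 a regulator of cytokinesis and LRP1B a lipoprotein receptor of the LDL family. The canonical start lay in the region for LRP1B, ACTR6, PARS2 and FAHD2A, and an alternative start for the other 6. Gained regions held starts of PRLR, the prolactin receptor (60.2 and 56.7), CFAP221 (60.9 and 49.7), SEC23B, a COPII coat subunit (38.7 and 36.5), TNC, the matrix protein tenascin C (29.0 and 44.1), and MARCHF3, OTUB2, ZBTB17, CPA5, WDR1 and INSYN2B, all 6 between 15.4 and 42.6. For CFAP221, OTUB2, ZBTB17 and INSYN2B this was the canonical start.

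Lost and gained regions were mostly single. Chained within 50 kb, the lost regions formed 2165 loci, of which 171 held 2 or more, and the gained regions 1951 loci, of which 172 held 2 or more. The loci with most lost regions were that of CXXC5 at chr5:139046892-139145519 (4 lost, none of its 6 merged regions called in all 4 libraries) and the UGT1A cluster at chr2:234570322-234647454 (4 lost of 9), which codes for glucuronosyltransferases and whose first exons are close copies. Of the loci with 3, those of the highest rank were in MACROD2, near SLC40A1 (ferroportin, the iron exporter) and near STT3B. The loci with most gained regions lay at chr13:40676260-40726992 (5 gained of 6), near ZMAT4 (4 of 7), near DPYD (4 of 6) and near XPO1 (4 of 5), and, of those with 3, the one of the highest rank lay near ADCY1 (3 of 3). Near stands here for the nearest coding start at any distance. It lay more than 100 kb away at ZMAT4, DPYD, ADCY1 and STT3B, and more than 20 kb away at XPO1 and SLC40A1. No gained region lay in these 5 lost loci and no lost region in these 5 gained loci.

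For a test over all regions, ranks of fold enrichment in each library were turned into normal scores, on which 1 unit is 1 SD of the library's regions and an uncalled region takes the tied lowest rank. The test took the 37627 regions with a peak in 2 or more libraries. The score was lower with NRF2 siRNA 30 at 2442 of them (6.49%) and higher at 2120 (5.63%) at an adjusted p under 0.05 (limma, Benjamini-Hochberg). Lost and gained regions enter this test only through the group in which they were called and so had to differ: they made up 1477 of the lower and 1032 of the higher calls. Among the 26093 regions called in all 4 libraries, whose calls do not follow from how they were chosen, 596 fell (2.28%) and 712 rose (2.73%). Of all calls by rank 53.5% were lower. On log2 fold enrichment, which takes in only the 26093 regions called in all 4 libraries, 1116 were lower and 1666 higher (40.1% lower), against 759 and 751 (50.3% lower) for ranks fitted on those regions alone. Without any 1 of the 4 libraries no region passed, with 5621 to 7237 regions at an unadjusted p under 0.05, so each adjusted p rests on all 4 libraries.

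Pairs 2 and 3 moved alike. Over the 26093 shared regions the score changes of the pairs had a Pearson correlation of 0.691 across regions and a Spearman rho of 0.627, a description over regions of the same libraries and not over replicates. In both pairs 9160 regions were lower and 9660 higher, and 7257 moved in opposite directions. All 596 regions that fell were lower and all 712 that rose were higher in both pairs. This largely follows from passing a fit to the same 4 libraries and is no separate sign of agreement. Regions that fell also shrank: called length was shorter in both pairs at 526 of 596 (88.3%), with medians of 2320 and 2881 bp in the controls and 1314 and 1615 bp with NRF2 siRNA 30. Regions that rose were longer in both pairs at 613 of 712 (86.1%), with control medians of 1576 and 1663 bp and NRF2 siRNA 30 medians of 2580 and 2752 bp. Of regions that passed neither way, 36.1% were shorter and 28.6% longer in both pairs. Of the regions that fell 78.7% were distal, and of those that rose 93.8%.

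**Figure D3:**
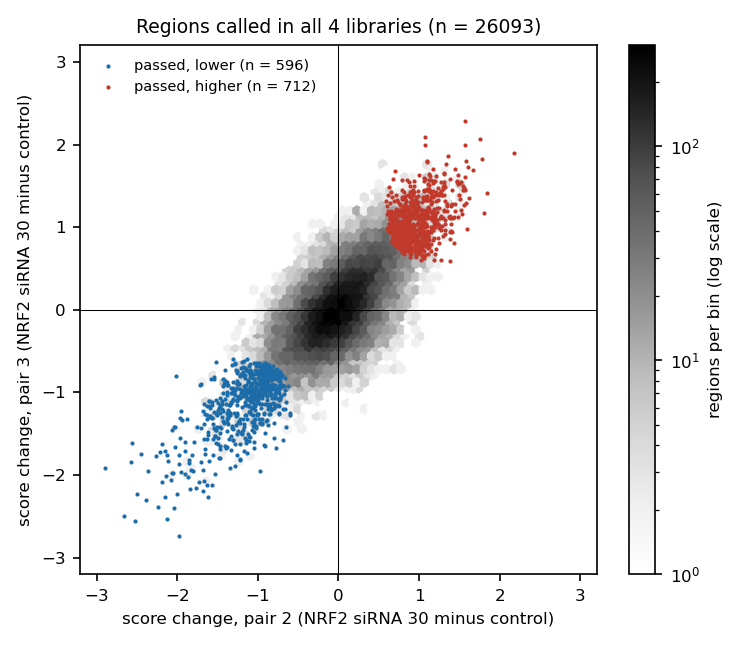
Score change with NRF2 siRNA 30 in pair 2 (x axis) against pair 3 (y axis) for regions called in all 4 libraries, with shading for the number of regions and points for the 596 that fell (blue) and the 712 that rose (red). The cloud runs along the diagonal (r = 0.691). Every point that passed has the same sign in both pairs, which largely follows from passing a fit to these same libraries.

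The response element letters differed among the shared distal regions as well. They matched 0.584 times per kb in the 469 that fell, 0.331 in the 668 that rose and 0.375 in the 15271 that did neither, at median lengths of 3094, 3050 and 3157 bp. A match lay in 89.1% of those that fell, 62.3% of those that rose and 68.3% of the rest. AP-1 letters matched 0.597, 0.731 and 0.497 times per kb and C/EBP letters 0.60, 0.599 and 0.609 times per kb in the same order.

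The largest falls left regions that were among the strongest in the controls near the bottom of the lists. The intronic region of ABCG2, a drug efflux transporter, at chr4:89098743-89100758 stood at 94.1 and 97.0 in the controls and at 19.5 and 23.8 with NRF2 siRNA 30 (score change -2.33, SE 0.20, limma adjusted p = 0.0119). A region downstream of AKR1B15, an aldo-keto reductase gene, at chr7:134274097-134282547 stood at 98.9 and 92.6 against 17.1 and 30.1 (score change -2.41, SE 0.318, adjusted p = 0.0141). A region 3843 bp from CD300LG on chromosome 17 stood at 98.2 and 97.5 against 25.5 and 25.5. In each of these regions, picked as the largest falls in these same libraries, both NRF2 siRNA 30 libraries were far below both controls. The other large falls were at DENND11 (a region with the start of an lncRNA), in EXOC6B, 19408 bp from EEIG1, 312206 bp from NOVA1, and at chr16:90060140-90063820 near DBNDD1, where 49 response element and 45 AP-1 matches were counted in 3681 bp and the NRF2 siRNA 30 libraries lay apart (14.9 and 49.0). Adjusted p at these 8 regions ranged from 0.0119 to 0.0141.

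Among the rises, the region beside KRT19, an epithelial keratin gene, at chr17:39685435-39687668 began 875 bp from the start and stood at 10.4 and 8.58 in the controls and at 84.3 and 73.6 with NRF2 siRNA 30 (change 1.80, SE 0.264, adjusted p = 0.0162). The region over AMHR2, the receptor of anti-Muellerian hormone, stood at 8.06 and 19.2 against 91.2 and 83.9 (change 2.03, SE 0.224, adjusted p = 0.0123). An exonic region of EML6 stood at 28.7 and 3.91 against 88.6 and 83.3 (adjusted p = 0.0242), so its controls lay far apart from each other. Intronic regions of EPG5, LMNTD1, ZNF385B and C12orf75 and a region 138603 bp from CAPN13 rose too, the last from 80.3 and 70.7 to 99.4 and 98.9. All 8 held an AP-1 match, as did 7 of the 8 largest falls, and over the shared distal regions an AP-1 match lay in 91.9% of those that rose, 91.0% of those that fell and 80.2% of the rest. The regions at KRT19 and CAPN13 lay outside genes.

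Genes of the NRF2 response were counted by lists of textbook targets. The lists were chosen with earlier results of these data known, so the counts are no independent check. Their 56 genes had 66 tested regions over a transcript start, at 53 genes. Of these 66 regions 20 passed as lower (30.3%), among them the lost start of CBR3, against 2.31% of all 10281 tested regions at a coding start, and 0 passed as higher, against 0.661%. Scores were below the controls in 59 of 66, and the median change was -0.504 against -0.0951 over all coding starts. In 48 of 66 both NRF2 siRNA 30 libraries were below both controls. At the starts of 15 ribosomal protein genes, taken as constitutive promoters, 0 of 15 regions passed in either direction and the median change was -0.157. Scores were nonetheless below the controls in 11 of these 15, and in 7 both NRF2 siRNA 30 libraries were below both controls. The matching shares over all coding starts are not given here.

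Within glutathione metabolism, GCLC and GCLM code for the subunits of the enzyme that starts glutathione synthesis. The region over an alternative start of GCLC stood at 99.9 and 99.8 in the controls and at 94.9 and 97.3 with NRF2 siRNA 30 (change -1.16, SE 0.196, adjusted p = 0.0202). The GCLM start region stood at 78.8 and 81.8 against 40.4 and 54.4 (change -0.848, adjusted p = 0.0371). The start of MGST1, a microsomal glutathione transferase, fell from 99.3 and 99.5 to 90.5 and 93.0 (adjusted p = 0.0205), and an intronic region of it was lost. An exonic region of GSR, glutathione reductase, rose from 58.8 and 59.7 to 93.7 and 91.0 (change 1.20, SE 0.204, adjusted p = 0.0204). SLC7A11, the cystine transporter, stood at 96.4 and 96.6 against 88.2 and 90.3 at its start and did not pass (adjusted p = 0.107). Within these 12 genes or 20 kb of them, 3 of 23 regions called in all 4 libraries fell and 1 rose, against 2.28% and 2.73% of all such regions. Of the 31 tested regions, lost ones included, 5 passed as lower and 1 as higher, against 6.49% and 5.63% of all tested, and 3 of 40 merged regions were lost, against 4.92%.

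In the thioredoxin system the start of TXN, thioredoxin itself, fell from 99.4 and 99.5 to 82.5 and 82.9 (change -1.56, SE 0.186, adjusted p = 0.0131). The start of SRXN1, which restores oxidised peroxiredoxins, fell from 92.3 and 92.1 to 57.9 and 70.7 (adjusted p = 0.0282). TXNRD1, thioredoxin reductase, stood at 99.2 and 99.5 against 96.2 and 96.5 (adjusted p = 0.0647). Of 16 tested regions 2 passed as lower (both called in all 4 libraries) and 1, over PRDX1 and MMACHC and not called in 1 control, as higher, against 6.49% and 5.63% of all tested.

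For quinone, carbonyl and alcohol metabolism, 9 of 39 regions called in all 4 libraries fell and 0 rose, against 2.28% and 2.73% of all such regions. With the lost regions, which had to differ, 16 of 55 tested regions passed as lower, against 6.49% of all tested. Of the 77 merged regions 13 were lost and 0 gained, against 4.92% and 4.49% of all regions. The NQO1 region, which covers its promoter and the response element shown above, stood at 99.1 and 99.4 in the controls and at 87.2 and 94.5 with NRF2 siRNA 30 (change -1.05, SE 0.213, adjusted p = 0.0304). The start of ALDH3A1, an aldehyde dehydrogenase, stood at 99.99 and 99.96 against 93.3 and 94.6 (change -1.94, SE 0.205, adjusted p = 0.0123), with fold enrichments of 23.8 and 27.7 against 10.3 and 11.4. The start of PTGR1, prostaglandin reductase, fell from 98.0 and 98.9 to 64.3 and 67.2 (change -1.72, adjusted p = 0.0123). A region in AKR1B1, aldose reductase, fell from 95.8 and 94.6 to 15.8 and 35.0 (change -2.16, SE 0.201, adjusted p = 0.0119). The start regions of AKR1B1 (change 0.0571) and AKR1B10 (change 0.194) did not fall.

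The aldo-keto reductase genes AKR1C1, AKR1C2 and AKR1C3 lie side by side as close paralogs, so calls among them are uncertain. The AKR1C1 start region stood at 65.8 and 63.7 in the controls and at 14.4 and 25.3 with NRF2 siRNA 30 (adjusted p = 0.0270). The long AKR1C2 region stood at 94.2 and 95.4 against 78.4 and 74.6 (adjusted p = 0.0366). The best-ranked region near AKR1C1, 3512 bp from its start, stood at 98.0 and 95.1 against 97.3 and 88.4, and its groups overlapped (adjusted p = 0.628). Its called length was 19757 and 22211 bp in the controls and 9269 and 12029 bp with NRF2 siRNA 30. Starts of CBR1 (carbonyl reductase, 93.9 and 96.1 against 70.2 and 75.9) and UGT1A6 (93.6 and 93.0 against 68.9 and 65.6) also fell.

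**Figure D4:**
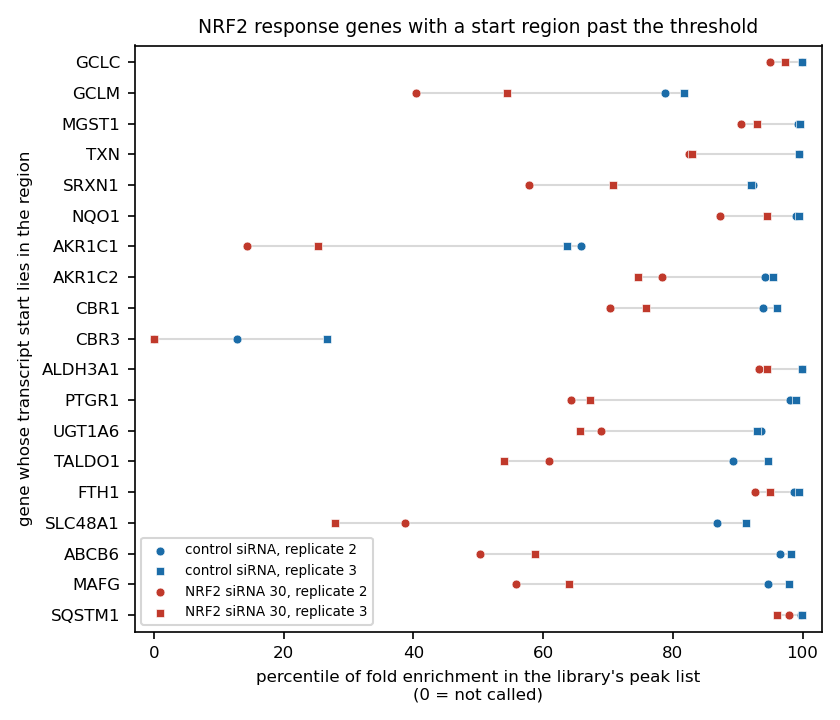
Percentile of fold enrichment (x axis, 0 = not called) in the 4 libraries at 19 of the 20 transcript start regions of NRF2 response genes that passed the threshold. In each row both NRF2 siRNA 30 points lie below both control points, which passing the threshold in these same libraries favours. CBR3 is the one row that was not called with NRF2 siRNA 30.

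Among NADPH genes, the start of TALDO1, transaldolase, fell from 89.3 and 94.7 to 61.0 and 53.9 (adjusted p = 0.0232). Scores were lower in 15 of 16 tested regions of this list, against 24 of 36 near ribosomal protein genes. The share over all tested regions is not given here. The median change was -0.391, against -0.121 near ribosomal protein genes and 0.00268 over all tested regions. At the 7 start regions of the list it was -0.548, against -0.0951 over all coding starts. Of the 16, 2 passed as lower and 0 as higher, against 6.49% and 5.63% of all tested. For heme and iron, SLC48A1, a heme transporter, fell from 86.8 and 91.3 to 38.7 and 27.9 (change -1.59, SE 0.229, adjusted p = 0.0160), and FTH1, ferritin heavy chain, from 98.6 and 99.4 to 92.7 and 94.9 (adjusted p = 0.0489). The best-ranked region near HMOX1, heme oxygenase, was that of the neighbouring MCM5 start and stood at 97.0 and 98.1 against 89.2 and 94.7 (adjusted p = 0.142). Of the efflux transporters, the start of ABCB6, a porphyrin transporter, fell from 96.6 and 98.2 to 50.3 and 58.7 (change -1.78, SE 0.191, adjusted p = 0.0123). Of 40 merged regions of the 5 transporters 8 were lost and 0 gained, against 4.92% and 4.49% of all regions. Of the lost ones 3 were at ABCC1 and 3 at ABCC2, the latter of low control rank (2.48 to 19.9) and 0 of 3 past the threshold, and an exonic region of ABCC5 passed as higher (adjusted p = 0.0490).

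At NFE2L2 itself the best-ranked region stood at 98.1 and 98.2 in the controls and at 97.9 and 96.8 with NRF2 siRNA 30 (change -0.134, SE 0.196, adjusted p = 0.719). Acetylation at the gene is no check of an siRNA, which acts on the RNA, so the knockdown was not checked in these files. MAFG, a small MAF partner, fell at its start from 94.7 and 97.9 to 55.8 and 64.0 (change -1.52, SE 0.206, adjusted p = 0.0145), and SQSTM1, the autophagy adaptor p62, from 99.7 and 99.9 to 98.0 and 96.1 (adjusted p = 0.0375). BACH1, a repressor at the same elements, had 1 lost and 2 gained intronic regions, and a region in TMEM184B near MAFF rose from 77.6 and 85.1 to 96.0 and 95.8 (adjusted p = 0.0376). GAPDH stood at 99.2 and 99.5 against 98.1 and 96.7 (adjusted p = 0.144).

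The region 8205 bp upstream of the start of NOTCH3 (a receptor of the NOTCH family), at chr19:15320011-15322987, stood at 87.9 and 84.6 in the controls and at 50.3 and 38.4 with NRF2 siRNA 30. The percentile was 86.2 ± 2.31 (SD, n = 2) against 44.3 ± 8.42 (SD, n = 2), a difference of -41.9, with p = 0.33 in a two-sided exact permutation test, the smallest that 2 against 2 libraries allow. In the fit across all regions the score change was -1.18 (SE 0.237, limma adjusted p = 0.0297). Fold enrichment went from 7.80 and 8.63 to 4.14 and 3.36, and called length from 2721 and 2977 bp to 1357 and 1380 bp. The region held 4 response element matches, 2 of them overlapping in the sequence shown above. It was the sole tested region of NOTCH3, since no tested region lay over a start of the gene. Of 10 genes of the NOTCH pathway, 9 had tested regions, 22 in all, of which this 1 passed as lower, against 6.49% of all tested, and 0 as higher.

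A further list holds 30 of the genes that the study names as tied to activated NRF2 in lung cancer cells, the others not being analysed here. It was picked on expression after NRF2 knockdown in lines that include A549, so it is not independent evidence. Of its 72 regions called in all 4 libraries 6 fell and 2 rose, against 2.28% and 2.73% of all such regions. Of its 98 tested regions, lost and gained ones included, 18 passed as lower and 3 as higher, against 6.49% and 5.63% of all tested. Of its 119 merged regions 13 were lost and 2 gained, against 4.92% and 4.49% of all regions. Besides FAM20B and NOTCH3, the start of C1S, a complement protease, fell from 63.3 and 75.4 to 1.85 and 23.8 (change -1.33, SE 0.197, adjusted p = 0.0165). A region in RABL3, near HGD, fell from 86.0 and 81.7 to 6.63 and 35.3 (adjusted p = 0.0162). Regions over the starts of F2RL2, HPDL, LDLRAD3 and NRG4 were lost. A region 6864 bp from GPI, glucose phosphate isomerase, rose from 56.8 and 54.0 to 88.6 and 91.2 (change 1.15, adjusted p = 0.0221).

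Of 33 tested regions at C/EBP and AP-1 genes 4 passed as lower and 0 as higher, against 6.49% and 5.63% of all tested. Of the 26 called in all 4 libraries 2 fell, against 2.28% of all such regions. The 4 were a region 16232 bp from CEBPB (77.3 and 85.8 against 47.9 and 53.5, adjusted p = 0.0388), the start of CEBPG (63.7 and 74.7 against 34.0 and 41.2, adjusted p = 0.0495), and lost regions near JUNB and ATF3. Of 50 tested regions at epithelial and mesenchymal genes 0 were lower and 1 was higher, a region 10810 bp from VIM (vimentin) with the start of VIM-AS1, which stood at 10.9 and 29.1 in the controls and at 77.7 and 79.1 with NRF2 siRNA 30 (change 1.5, SE 0.184, adjusted p = 0.0135). Of 21 tested regions at cytokine genes 2 passed, against the same shares, near CXCL3 (lower) and IL1A (lost). Marker genes of other cell types had calls of their own within 20 kb: 1 lower and 2 higher of 16 tested regions for leukocyte markers (ITGAM, PTPRC and CD68), 0 and 2 of 5 for endothelial markers (both at CDH5), 0 and 1 of 3 for fibroblast markers (between DCN and LUM) and 0 and 0 of 10 for alveolar markers. Their part in the other results was not tested.

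Replicate 1, in which NRF2 siRNA 28 was used against its own control, took no part in choosing these regions. Its lists were shorter, with 27941 peaks in the control and 23885 with NRF2 siRNA 28. Of the 2356 lost regions 1131 were called only in its control, 7 only with NRF2 siRNA 28, 34 in both and 1184 in neither. Of the 2149 gained regions 408 were called only with NRF2 siRNA 28, 56 only in its control, 57 in both and 1628 in neither. For comparison, of the 26093 regions called in all 4 libraries 4064 were called only in the replicate 1 control and 1334 only with NRF2 siRNA 28. Of the 596 shared regions that fell, 568 (95.3%) were also lower with NRF2 siRNA 28, counting a region not called there as 0, and of the 712 that rose 500 (70.2%) were also higher and 78 lower. Among shared regions that passed neither way 53.3% were lower and 31.9% higher. One pair of libraries allows no test of these counts, and siRNA, sequencing run and depth cannot be told apart between replicate 1 and the rest. Some single regions followed: the PTHLH region stood at 79.6 in the replicate 1 control and was not called with NRF2 siRNA 28, the NOTCH3 upstream region stood at 92.8 and 36.1, and the NTSR1 region was not called in its control and stood at 58.7 with NRF2 siRNA 28. Others did not: the gained regions over EIF3I and at chr13:40703866-40706764 and the C12orf75 region were called in neither replicate 1 library. The CEBPG start stood at 40.3 in the replicate 1 control and 40.2 with NRF2 siRNA 28.

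**Figure D5:**
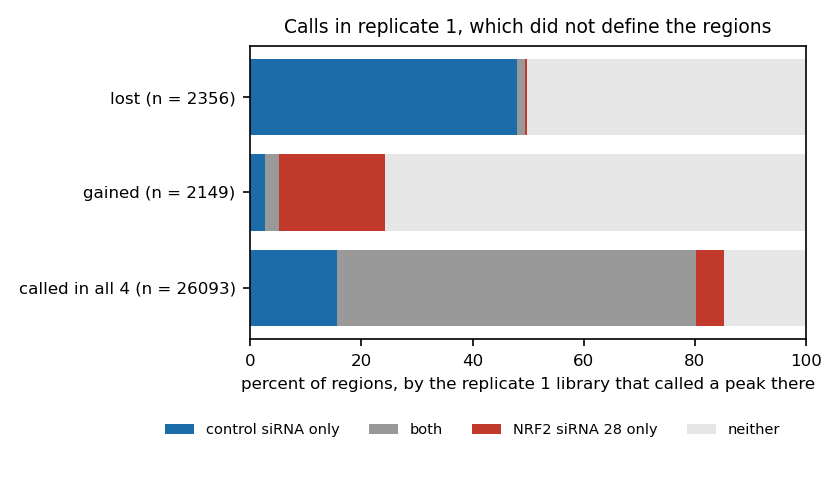
Share of lost, gained and shared regions (bars, percent) by which replicate 1 library called a peak there. Among lost regions the control-only part (1131) far exceeds the part called only with NRF2 siRNA 28 (7), and among gained regions the order is turned (56 and 408).

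The controls held 34747 and 41571 peaks over 85.0 and 113 Mb, and the NRF2 siRNA 30 libraries 34986 and 39108 peaks over 84.8 and 106 Mb. Replicate 3 was longer than replicate 2 in both groups. The differences in peak number (-1112, exact permutation p = 1), covered length (-3.92 Mb, exact permutation p = 0.67) and share of peaks of at least 5-fold enrichment (-0.303 percentage points, exact permutation p = 1) were smaller than the spread between replicates, in a design whose smallest p is 0.33. With peaks of q at most 1e-05 only, the groups were apart in the 5-fold share (-3.49 percentage points, exact permutation p = 0.33). The lists hold no read counts. The study's methods give like mapped read totals for these 4 libraries and clearly lower ones for replicate 1.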

How the data were processed

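Peak lists of H3K27ac ChIP-seq in A549 cells were analysed as deposited. Per the study's methods, the authors mapped single-end reads with Bowtie2 2.2.6 (build hg19), dropped poorly mapped reads (SAMtools), used MACS2 2.1.0.20151222 for broad peaks of each library and removed blacklisted peaks. The background used for calling is not given in the sources used here. In the deposited lists fold enrichment is a ratio, p and q are given as −log10 values, and the score is 10 times −log10 q, cut to a whole number. The lists hold no read counts. The study's methods give like mapped read totals for these 4 libraries. Input libraries were not analysed here. Replicate 1 was left out of all fits.

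Peaks were merged at 1 bp of overlap. Within each list fold was ranked, and ranks over regions called in at least 2 of 4 libraries were turned into normal scores and fitted with limma 3.58.1 (R 4.3.3), without a replicate term, with Benjamini-Hochberg adjustment at 0.05. The fit was tested on simulated data. p-values measure the spread between 2 libraries a group, from separate experiments per the study's methods. Values of single libraries were compared by exact permutation, two-sided. Classes and genes come from GENCODE v44 on GRCh37, whose coordinates match hg19. From 23 to 29 peaks per list lay on contigs outside it. Motifs were read from GRCh37 with pysam 0.24.0. Paralogs with close copies may share reads.

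Regions were named by rule: the 10 strongest lost and gained, the 8 largest falls and rises among regions called in all 4 libraries, 10 coding starts and 5 loci of each kind, a region lying 5 to 15 kb before NOTCH3, and regions within 20 kb of genes of fixed lists that were lost, gained or past the threshold. The members and lists were chosen with earlier results of these data known. Alternatives were a replicate block, equal list lengths, a stricter q, regions in all 4 libraries, merging within 500 bp, mean fold, log2 fold and leaving out each library. Results at some listed genes are not reported here.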

Additional observations from a re-analysis of the deposited data

How the results depend on the processing

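The limma counts of 2442 lower and 2120 higher regions became 2805 and 2679 with equal list lengths, 2411 and 2082 with merging within 500 bp and 2434 and 2088 with mean fold. They were 1236 and 969 with q at most 1e-05, 759 and 751 when only regions called in all 4 libraries were tested and 1116 and 1666 on log2 fold, all 3 of which test fewer regions. Without any 1 library both counts were 0. With the replicate number as a block they were 3462 and 3744. Deviations of same-numbered libraries correlated at 0.270 over the tested regions, but 2 pairs are too few to take the libraries as paired.

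Lost and gained counts were 896 and 1269 with the stricter q, and without 1 library they ranged from 2553 to 8045 for lost and from 2582 to 4896 for gained regions, since fewer libraries then define a call. The control share of one-sided regions was 50.6% with equal lengths, 41.4% with the stricter q and 34.3% to 75.7% without 1 library. The response element density of lost minus gained regions (0.377 per kb) was 0.33 with equal lengths, 0.271 with the stricter q and 0.224 to 0.365 without 1 library, and 0.368 without matches in Alu letters, a choice made after seeing the data. The distal share was 90.8% of lost regions with equal lengths, 84.3% of lost and 95.4% of gained with the stricter q, and without 1 library 87.1% to 93.2% of lost and 90.4% to 96.4% of gained.

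The peak number difference turned to 147 with the stricter q and ranged from -4524 to 2300 without 1 library, covered length from -18.1 to 10.3 Mb and the 5-fold share from -3.55 to 2.94 points, the last being -3.49 with the stricter q. The NOTCH3 upstream difference ranged from -47.9 to -36.0 points without 1 library. Of 26 named shared regions, the 19 past the threshold kept it under every setting other than leaving out a library, where 0 passed. The TXNRD1 region passed with the block (adjusted p = 0.0488) and with mean fold (0.04535), SLC7A11 with mean fold (0.0495), and the best-ranked AKR1C1 region had changes from -0.679 to 0.117 without 1 library, the last without NRF2 siRNA 30 replicate 3. The causes of these shifts were not tested.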
